A study of Mus musculus with 4 samples.

Results

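Potassium, sodium, TRP and chloride channel genes were taken as a set by symbol. Every N6-methyladenosine (m6A) site whose gene symbol begins with Kcn, Scn, Clcn or Piezo, or with Trpc, Trpm, Trpv or Ano followed by a digit, belongs to it. This gave 57 of the 10388 sites in the knockout (KO) list and 61 of the 10814 sites in the wild-type (WT) list. These sites lay in 45 of the 6660 genes with a site in either list, with 40 of the genes in the KO list and 39 in the WT list. Of the 45 genes, 43 belong to channel families, which include transporters such as the exchanger Clcn3. The other 2 match by name only: Trpc4ap encodes a protein that associates with TRP channels, and Kcnq1ot1 is a long non-coding RNA from within the Kcnq1 gene.

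The mice were ABRO1 Knockout animals and wild-type animals, both on a C57BL/6 background, and the tissue was heart. ABRO1 (Abraxas2) is the scaffold of a deubiquitinase complex. RNA fragments carrying m6A were pulled down with an antibody (IP) and sequenced beside an input library, with 1 IP and 1 input library for each genotype. With a single library of each kind there are no replicates and no test; every difference below is one between 2 lists, and the sequencing depth behind the lists is unknown.

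Voltage-gated sodium channels depolarise the heart muscle cell, and potassium channels repolarise it and hold its resting potential. Chloride channels, anoctamins, TRP channels and Piezo channels carry anions, calcium or mechanically gated currents in muscle, vessel and nerve cells. m6A is laid down on mRNA during transcription, often near stop codons and in long exons, and affects the stability and translation of the transcript. A site here is an interval in which the IP exceeded the input. Its fold enrichment is the linear ratio of IP over input, and its score is the authors' peak-calling p-value on a log10 scale, times minus 10, so a high score marks a strong site. Both values are the authors' own for each list. They describe sites, and side by side they do not measure a change in methylation. Coordinates are in mm10 and count from 1.

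Most channel genes carried m6A sites in both genotypes. Of the 45 genes, 6 were in the KO list only (13.3%), 5 in the WT list only (11.1%) and 34 in both (75.6%, exact 95% interval 60.5 to 87.1). Over all genes with a site, 11.6% were in the KO list only, 14.0% in the WT list only and 74.4% in both. The channel genes were therefore divided between the lists much as all genes were. The 6 genes in the KO list only were Kcne1, Kcne4, Trpm3, Ano1, Piezo2 and Kcnq1ot1. The 5 in the WT list only included Kcnj5, Scn10a and Clcn1. A gene without a site in a list is not shown to be unmethylated or untranscribed. Among protein-coding genes of the RefSeq annotation, 156 match the symbol rule and 44 of these (28.2%, interval 21.3 to 36.0) had a site in either list, against 6464 of all 21900 coding genes (29.5%). The other 112 had none.

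Cell type markers were looked up in the same lists. Of 7 cardiomyocyte markers, 4 (Actn2, Ryr2, Tnnt2 and Ttn) had sites in both lists, while Myh6, Tnni3 and Mybpc3 had none. Of 5 neuron and glia markers, 1 had a site, in both lists. Of 5 fibroblast markers, 2 were in both lists and 2 (Col3a1 and Tcf21) in the WT list only. Sites in both lists were also found for 3 of 4 endothelial markers and for 2 of 4 markers of smooth muscle and pericytes. For comparison, 29.5% of all protein-coding genes had a site, and of all genes with a site 14.0% were in the WT list only and 74.4% in both. The lists give no RNA level, and in whole heart fewer cells of a type and less RNA per cell cannot be told apart.

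The voltage-gated potassium channels formed the largest family, with 13 of 40 coding genes carrying a site. Of these 13 genes, 12 were in both lists and 1 was in the WT list only. For comparison, a site was carried by 29.5% of all protein-coding genes. Presence in both lists held for 74.4% of all site-carrying genes, and presence in the WT list only for 14.0%. Kcna5, which carries a sustained repolarising current in mouse ventricle, had a single site that covered 100% of its annotated span in both lists (chr6:126532551-126535555, minus strand, 3005 bp). Its fold was 13.6 in the KO list and 20.8 in the WT list, with scores of 1682 and 1858. The whole annotated gene was thus one site in both genotypes.

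Kcnd2 and Kcnd3, the pores of the fast transient outward current, had sites close to the 3′ end of very long genes. Kcnd2 had 2 sites in the KO list and 3 in the WT list. At chr6:21725977-21726224 (plus strand) the fold was 14.1 in the KO list and 16.3 in the WT list, with scores of 886 and 1257. A longer site followed, from 21727165 to 21728120 in the KO list (fold 7.73, score 1363) and to 21728501 in the WT list (fold 8.98, score 622). The remaining WT site of Kcnd2 was weak (fold 4.26, score 70.2). Kcnd3 had 1 site in the KO list and 3 in the WT list. The shared site (chr3:105668080-105668327, plus strand) had fold 4.02 and score 99.3 in the KO list, against 11.1 and 339 in the WT list. The WT list alone held a site from 105669008 to 105671231 (fold 11.0, score 488), the strongest channel site without a counterpart in either list. Its other Kcnd3 site, near the 5′ end (fold 13.2, score 91.6), lay inside the span of the long non-coding RNA gene Kcnd3os.

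Kcna4, the pore of a slower transient current, had 1 site per list with shifted edges. It ran from 107296148 to 107298036 on chromosome 2 in the KO list (fold 6.87, score 173) and from 107294144 to 107297358 in the WT list (fold 11.8, score 403). Kcnh2, the pore of the rapid delayed rectifier, had one site with the same edges (chr5:24331663-24332112, minus strand) and nearly the same values in both lists. The folds were 8.34 in the KO list and 8.36 in the WT list, with scores of 181 and 199. The WT list added a weak Kcnh2 site from 24348311 to 24348541 (fold 9.38, score 65.3).

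Kcng2, a subunit that modifies other channels and forms none alone, was in both lists at different places. Its KO site (chr18:80363213-80363336, minus strand) lay 918 bp from the 5′ edge of the gene, with fold 5.38 and score 94.0. Its WT site (chr18:80294544-80296408) ended at the 3′ edge, with a fold of 41.5, the largest of any channel site, but a score of 189.7. The KO site also lay inside the span of the long non-coding RNA gene D330025C20Rik. The remaining members, Kcna1, Kcna2, Kcna6, Kcna7 and Kcnv2, are better known from neurons, skeletal muscle or the retina. Their folds ran between 5.89 and 15.2 in the KO list and between 8.60 and 15.3 in the WT list. Kcna6 had the same edges in both lists and folds of 15.2 and 15.3. Kcna2 had 3 sites in the KO list and 2 in the WT list. The part of nerve cells in these sites was not tested. The plot of folds shows each site of these and other members, with overlapping sites joined.

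**Figure D1:**
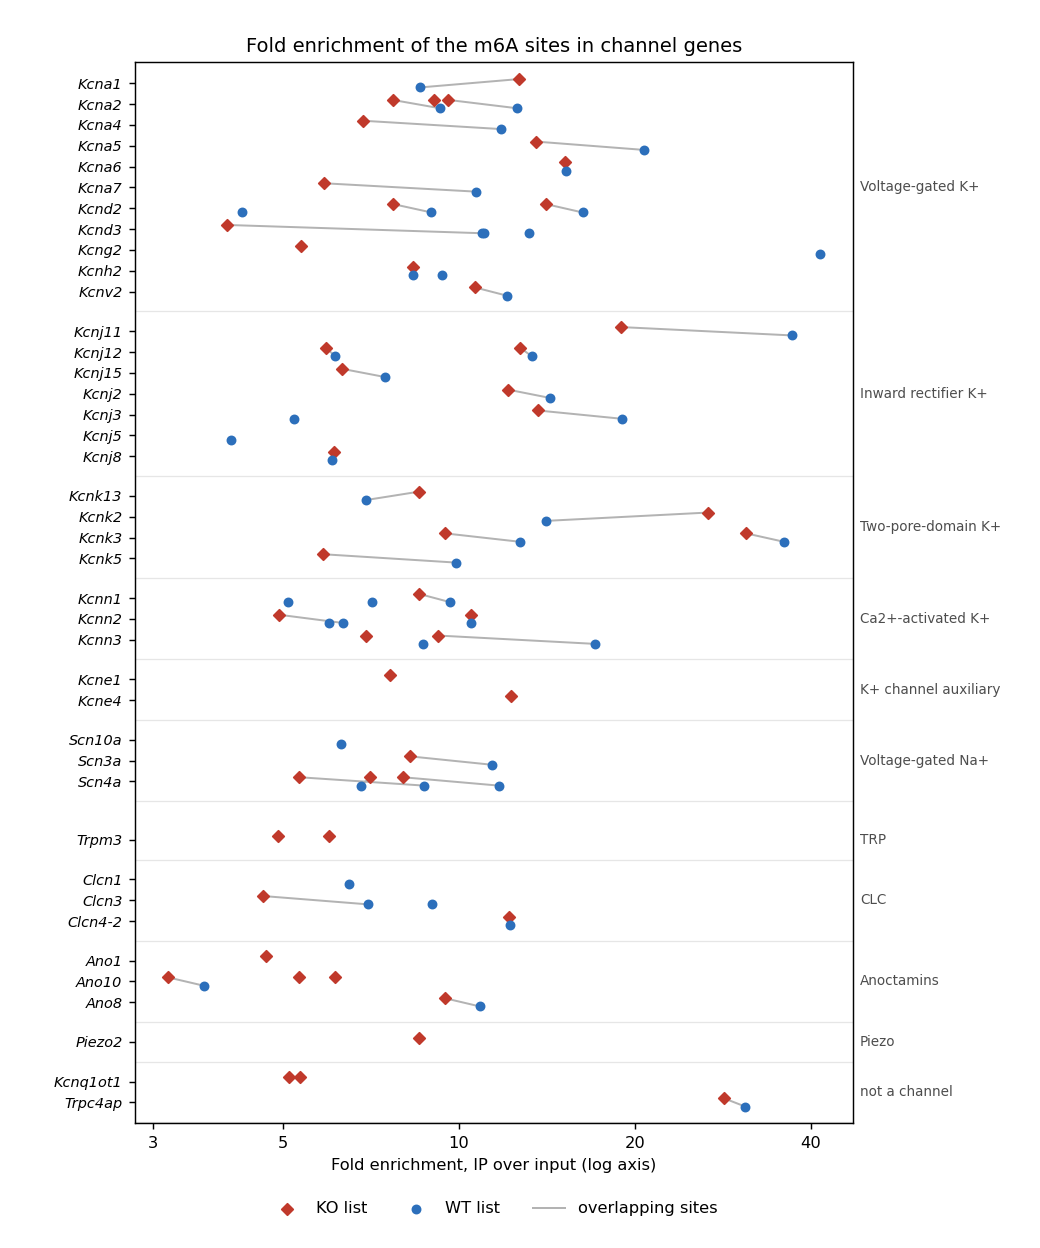
Fold enrichment (IP over input, log axis) of each m6A site in 40 of the 45 genes, grouped by family, with KO sites as diamonds above WT sites as circles and grey lines joining sites that overlap between the lists. Most joined pairs have the WT site further right, Kcnk2 has the KO site further right, and the isolated marks are mostly at low fold, with the WT site of Kcng2 at 41.5 as an exception.

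The inward rectifiers held several of the strongest channel sites. Of 7 such genes, 6 had sites in both lists and Kcnj5 in the WT list only, where the shares of all genes with a site were 74.4% and 14.0%. Kcnj11, the pore of the ATP-sensitive channel of heart muscle, had a site over 81.3% of its span (chr7:46097123-46100237, minus strand). Its fold was 19.0 in the KO list and 37.2 in the WT list, and its score was 3100 in both. Kcnj2, the main pore of the resting potassium current, had a site that began at 111071549 on chromosome 11 (plus strand) in both lists, with folds of 12.1 in the KO list and 14.3 in the WT list and again scores of 3100. A score of 3100 is shared by 872 KO sites and 911 WT sites, so these sites are not ranked further by it.

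Kcnj12, a second pore of the resting current, had 2 sites with identical edges in the lists. The large one (chr11:61069128-61073267, plus strand, 4140 bp) had folds of 12.8 in the KO list and 13.3 in the WT list, with scores of 1313 and 2382. The small one began at the first base of the annotated gene, with folds of 5.93 and 6.15. Kcnj3 and Kcnj5 form the acetylcholine-activated channel of atrium and pacemaker. Kcnj3 had a site at its 3′ end with fold 13.7 and score 1291 in the KO list, against 19.0 and 2793 in the WT list, and the WT list added a weak site (fold 5.22, score 74.2). Kcnj5 had fold 4.08 and score 110.3 in the WT list (chr9:32322081-32323019, minus strand). The Kcnj8 site, in the gene for the ATP-sensitive pore of vascular muscle, had folds of 6.13 in the KO list and 6.06 in the WT list but scores of 2465 and 750.0. Kcnj15 had one overlapping site per list, with folds of 6.31 and 7.49.

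All 4 tandem-pore potassium channel genes with a site, which carry background currents, were in both lists. So were 74.4% of all genes with a site. Kcnk3 had 2 sites with identical edges. The first began at the first base of the gene (chr5:30588170-30588599, plus strand) and had the largest fold of the channel sites in the KO list, 31.1, against 36.0 in the WT list, with scores of 3171 and 2280.0. The second reached the last base of the gene, with folds of 9.49 in the KO list and 12.7 in the WT list and scores of 969 and 3100. This gene thus carried strong sites at both ends in both genotypes. Kcnk13 had folds of 8.54 and 6.94, and Kcnk5 of 5.87 and 9.89.

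Kcnk2, a channel opened by stretch and lipids, was the channel gene whose shared site stood highest in the KO list relative to the WT list. Its single site had identical edges in both (chr1:189343301-189343707, minus strand, 407 bp). The fold was 26.7 and the score 736 in the KO list, against 14.1 and 161 in the WT list. By fold it stood at the 94.3 percentile of the KO list and at the 73.8 percentile of the WT list. The span of the long non-coding RNA gene A430027H14Rik also covers this place. Such spans, whose strand is not in the annotation table, also crossed sites of Kcnk3 (Gm9899), Kcnh2 (Gm15589), Kcnn2 (A330093E20Rik) and Clcn4-2 (Gm45631). Sequence was on hand for 300 bases in a row of this site, as a RefSeq promoter window of GRCm38.p6, the assembly of mm10 (chr1:189343304-189343603). It was searched for the motif GGACA, the motif GGACC and the motif GGACT, common forms of the m6A consensus in which the A is methylated. The strand of the transcript held 1 match and the opposite strand 1. Only the last 50 bases of this window lie past its own annotated start, and the match on the transcript strand lies upstream of that start. A second annotated start lies at the 5′ edge of the site, upstream of the match. Which start the RNA uses was not tested. The match on the transcript strand starts 148 bases from the 5′ edge of the site and is shown, in capitals, because it is the one match in that strand of the window:
Kcnk2, chr1:189343544-189343572, minus strand: agggcccgcgcgGGACCccaggcggccac
Of all 32851 promoter windows of 300 bases, 60.2% hold at least 1 of these motifs on the strand of their gene and 83.9% on either strand (a match is a description and not a mapped base). The first 50 bases of the Kcna5 and Kcnn3 genes, which also lie in sites of both lists, held no match on either strand. Over all such windows, 15.4% have a match in the first 50 bases, so most have none. These 50 bases are a small part of the sites, which are 3005 bp long in Kcna5 and 1241 bp in Kcnn3.

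The calcium-activated potassium channels Kcnn1, Kcnn2 and Kcnn3 were each in both lists, as were 74.4% of all genes with a site. Kcnn2, which contributes to atrial repolarisation, had 2 sites in the KO list and 3 in the WT list. The strong one (chr18:45559351-45560624, plus strand) was nearly the same in the lists, with folds of 10.5 in both and scores of 1018 in the KO list and 954 in the WT list. Kcnn3 had a site that began at the first base of the gene, with fold 9.21 and score 138 in the KO list, against 17.1 and 365 in the WT list. Each list held a second Kcnn3 site near the 3′ end, but the KO site (89667155 to 89667679) and the WT site (89671696 to 89672406) did not overlap. Kcnn1 had 1 KO site and 3 WT sites, all with scores under 100.

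Of 17 coding genes for auxiliary potassium channel subunits, 2 had a site, against 29.5% of all protein-coding genes. Both were in the KO list only. Of all genes with a site, 11.6% were in the KO list only. Kcne1, the partner of Kcnq1 in the slow delayed rectifier, had a site of 1562 bp that ended at the 3′ edge of the gene (chr16:92346001-92347562, minus strand, fold 7.62, score 225). Kcne4, an inhibitory partner of several potassium channels, had a site of 1100 bp (chr1:78817611-78818710, plus strand, fold 12.3, score 173). The Kcne4 site also lay in the span of the long non-coding RNA gene Gm29536. Kcnq1 and the transient-current partner Kcnip2 had no site in either list.

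Of 10 voltage-gated sodium channel pores, 4 had a site, 3 of them in both lists. Those shares were 29.5% over all protein-coding genes and 74.4% over all genes with a site. Scn4a, the sodium channel of skeletal muscle, had 3 overlapping sites in both lists. Its strongest WT site, near the 3′ end, had a score of 131 in the KO list and 662 in the WT list, with folds of 5.34 and 8.71. Scn3a had one overlapping site, with folds of 8.27 and 11.4. Scn10a, known from sensory neurons, was in the WT list only (chr9:119608509-119610120, minus strand, fold 6.29, score 83.0). The beta subunit gene Scn4b had no site. None of the 3 epithelial sodium channel genes had a site.

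Of 21 coding genes for TRP channels, 2 had a site, against 29.5% of all protein-coding genes. No TRP site overlapped between the lists, but there were only 3 KO sites and 1 WT site. All but 1 of them scored under 100. Of all sites, 19.6% in the KO list and 22.8% in the WT list had no counterpart, and 50.5% and 53.8% of those with a score under 100. Trpm3 had 2 sites in the KO list only, near its 3′ end. The stronger one (chr19:22986856-22989361, plus strand) had fold 4.91 and score 103, the other fold 6.0 and score 57.6. Both lay inside the span of the long non-coding RNA gene C330002G04Rik. Trpm4, Trpm7 and Trpc1 had no site.

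Among the chloride channels and exchangers, Clcn3, an exchanger of intracellular membranes, had one site with identical edges (chr8:60919340-60919556, minus strand). Its fold was 4.63 and its score 102 in the KO list, against 7.0 and 68.5 in the WT list. The WT list alone held a stronger Clcn3 site nearer to the 3′ end (60911775 to 60913175, fold 8.99, score 343). Clcn4-2 had identical edges and folds of 12.2 in both lists. Clcn1, the chloride channel of skeletal muscle, was in the WT list only (fold 6.49, score 68.2). Of the anoctamins, Ano1, a calcium-activated chloride channel, was in the KO list only (fold 4.69, score 84.7), Ano8 had identical edges in both lists with folds of 9.46 and 10.9, and Ano10 had 3 KO sites and 1 WT site. Piezo2, a mechanically gated channel of sensory nerves, was in the KO list only (chr18:63107975-63108273, minus strand, fold 8.54, score 88.6), and Piezo1 had no site.

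The 2 genes that match by name only stood apart from each other. Trpc4ap had one of the strongest sites of the set (chr2:155634271-155635140, minus strand), with folds of 28.4 in the KO list and 30.9 in the WT list and a score of 3100 in both. Its 3′ end overlaps the annotated end of the neighbouring gene Myh7b. Kcnq1ot1 had 2 sites in the KO list only, one at the start of the RNA (chr7:143294987-143296547, minus strand, fold 5.35, score 206) and a weak one inside it (fold 5.12, score 56.3). Without these 2 genes, 5 of the other 43 were in the KO list only, 5 in the WT list only and 33 in both.

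Next, the sites were compared pair by pair. Of the channel sites, 43 of 57 in the KO list and 43 of 61 in the WT list overlapped a site of the other list by at least 1 bp on the same strand. The shares without a counterpart were 24.6% of KO sites (interval 14.1 to 37.8) and 29.5% of WT sites (18.5 to 42.6). Over all sites these shares were 19.6% and 22.8%, inside both intervals. All intervals cover counting error only. Channel sites without a counterpart were weak, with a median score of 91.3 in the KO list and 81.2 in the WT list, against 227 and 259 for those with one. Of channel sites with a score under 100, 9 of 16 KO sites (56.3%) and 13 of 20 WT sites (65.0%) had no counterpart, where all sites gave 50.5% and 53.8%. At 100 or more these numbers were 5 of 41 and 5 of 41, or 12.2% in each list, where all sites gave 10.7% and 13.6%. Of the channel sites without a counterpart, 6 of 14 KO sites (42.9%, interval 17.7 to 71.1) and 13 of 18 WT sites (72.2%, 46.5 to 90.3) lay in genes present in both lists. Over all sites without a counterpart these shares were 59.3% and 58.2%, inside both intervals. Of the 34 channel genes in both lists, 2 had no overlapping site, among them Kcng2 (5.88%, interval 0.72 to 19.7, against 2.68% of all genes in both lists).

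For 24 channel sites the edges were identical in both lists. The KO fold was below the WT fold at 21 of them (87.5%, interval 67.6 to 97.3) and above it at 3, among them Kcnk2 and one site of Scn4a. Of all 5904 such sites, 72.5% had the lower fold in the KO list and 27.4% the higher, and the interval for the channel sites includes the share over all of them. Their median fold was 9.99 in the KO list and 12.5 in the WT list, against 8.76 and 10.3 over all such sites. The scores did not lean the same way: they were higher in the KO list at 10 channel sites, lower at 12 and equal at 2, and over all such sites 45.9% were higher and 44.4% lower. Side by side, the widest gaps were at Kcnd3, Kcnj11, Kcnn3 and Kcna5 with the lower fold in the KO list, and at Kcnk2 with the higher, as the scatter of shared sites shows. Over all sites with identical edges the ratio of KO to WT fold had a median of 0.831. Its 5th and 95th percentiles were 0.482 and 1.49. Kcnj11 (0.511), Kcnn3 (0.539) and Kcna5 (0.653) lay inside that range, Kcnd3 (0.364) and Kcnk2 (1.89) outside it. A ratio above that of Kcnk2 was held by 1.42% of all such sites.

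**Figure D2:**
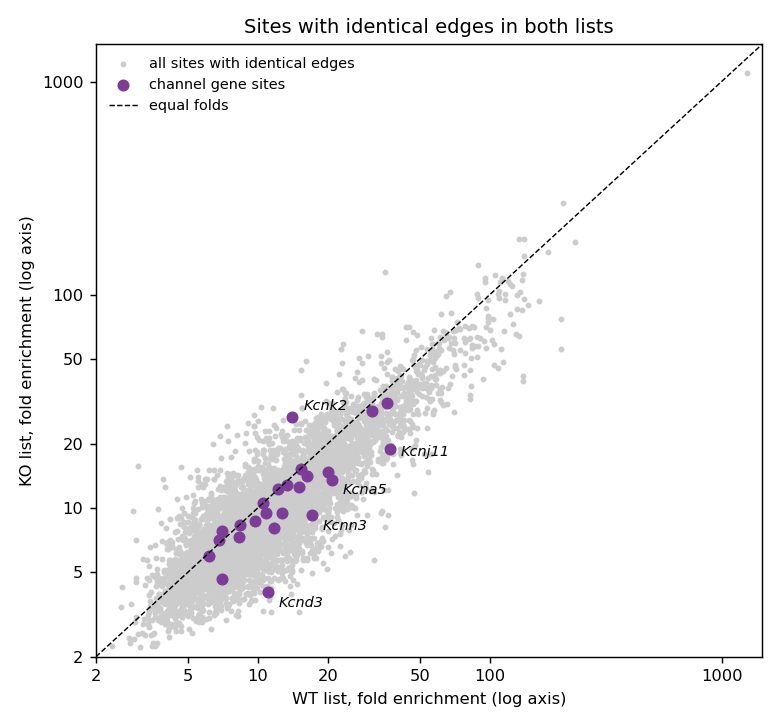
Fold enrichment in the KO list (vertical, log axis) against the WT list (horizontal, log axis) at the 5904 sites with identical edges in both lists (grey) and at the 24 of them in channel genes (purple); the dashed line marks equal folds. Most grey and purple points lie under the line, 21 of the 24 channel sites do so, and Kcnk2 (26.7 against 14.1) lies above it.

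Channel sites were long. Their median length was 762 bp in the KO list (quartiles 371 and 1562) and 794 bp in the WT list (379 and 1587), against 364 bp and 394 bp over all sites. Sites of 1000 bp or more made up 23 of 57 KO sites (40.4%, interval 27.6 to 54.2) and 23 of 61 WT sites (37.7%, 25.6 to 51.0). Over all sites these shares were 24.5% and 25.9%, under the interval in the KO list and just inside it in the WT list. The inward rectifiers had the longest sites, with medians of 2817 bp in the KO list and 1969 bp in the WT list, whereas the sodium channel pores had a median of 408 bp in each. Many inward rectifier and Kcna genes are known to hold their coding sequence in a single exon, while sodium channel genes are split into many. Exons were not placed here, so the part of gene structure in site length was not tested.

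**Figure D3:**
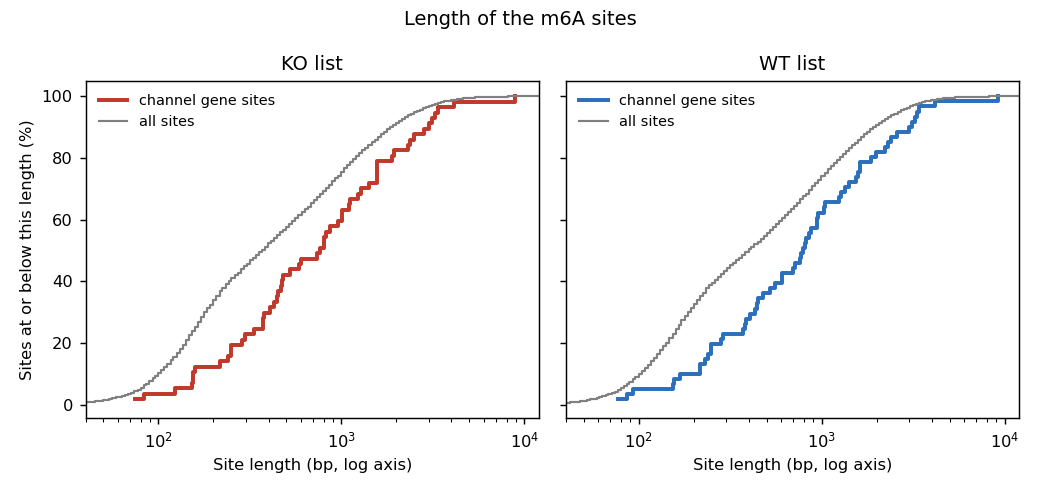
Share of sites at or below a given length (log axis) in the KO list (left) and the WT list (right), for channel gene sites (coloured) and all sites (grey). The coloured curves run to the right of the grey ones over most of the range, with medians of 762 and 794 bp against 364 and 394 bp.

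Fold, score and number of sites were then set beside those of the whole lists. The channel sites' median fold was 8.27 in the KO list and 9.69 in the WT list, beside 7.96 and 9.35 over all sites. Their median score was 181 in the KO list and 190.4 in the WT list, beside 270.1 and 266. A score under 100 was found for 28.1% of KO channel sites (interval 17.0 to 41.5) and 32.8% of WT channel sites (21.3 to 46.0), and the shares of all sites, 22.3% and 22.9%, lay inside these intervals. In the KO list 12 of 40 channel genes (30.0%, interval 16.6 to 46.5) had 2 or more sites, against 40.1% of all genes, and in the WT list 14 of 39 (35.9%, 21.2 to 52.8), against 41.3%. Both intervals include the share over all genes. Of the 34 channel genes in both lists, 24 (70.6%) had equal numbers of sites, against 69.6% of all genes in both lists.

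By position, channel sites were most frequent at the 3′ end. The final 20% of the gene span held the midpoint of 24 of 57 KO sites (42.1%, interval 29.1 to 55.9) and 26 of 61 WT sites (42.6%, 30.0 to 55.9). Over all sites placed in their gene, the shares were 34.8% and 35.7%, inside both intervals. The first 20% held 11 KO and 12 WT channel sites (19.3% and 19.7%), beside 26.1% and 25.5% of all sites. Kcna5, covered whole, differs from the common pattern at gene ends, which Kcnk3 and Kcnj12 show at both ends. Spans include introns, so these are not positions in the mature RNA. The map of sites along the genes shows this member by member.

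**Figure D4:**
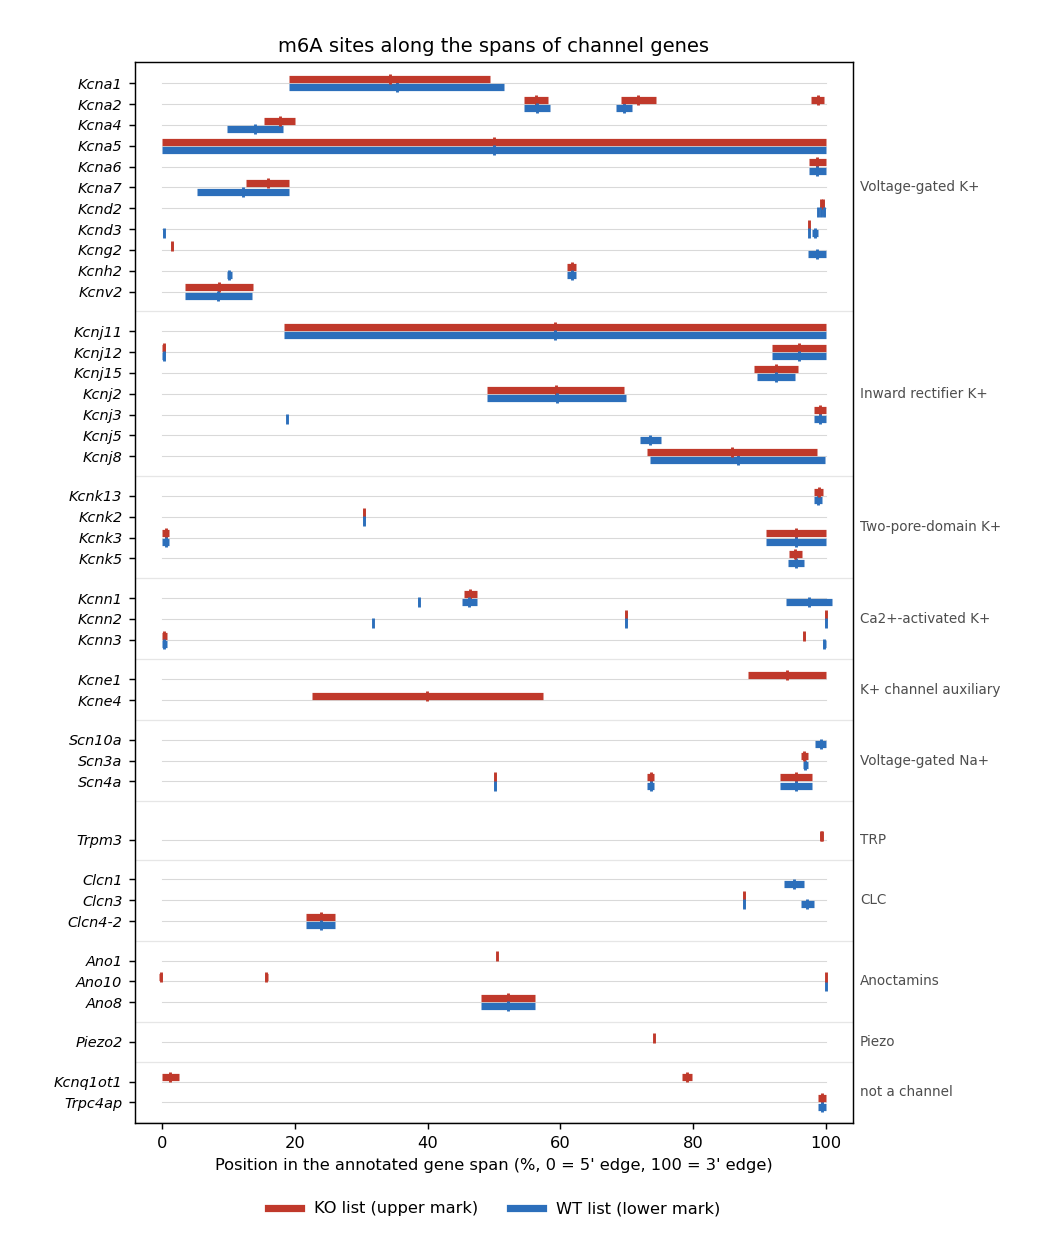
Position of each m6A site in the annotated span of its gene, from the 5′ edge (0%) to the 3′ edge (100%), for 40 of the 45 genes, with KO sites above WT sites and a tick at each midpoint. Marks of the lists mostly coincide, Kcna5 is covered over its whole span, and Kcng2 has its KO and WT marks at opposite ends.

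Channels known in the heart and their partners were read as lists. Of 25 channel genes known in the heart, 18 had a site: 1 in the KO list only (Kcne1), 2 in the WT list only, among them Kcnj5, and 15 in both. The 7 without a site were Kcnip2, Kcnq1, Piezo1, Scn4b, Trpc1, Trpm4 and Trpm7. Of 32 other genes of cardiac excitability, 0 were in the KO list only, 1 in the WT list only and 19 in both. For comparison, 29.5% of all protein-coding genes had a site, and of all genes with a site 11.6% were in the KO list only, 14.0% in the WT list only and 74.4% in both. Both gene sets were picked for their role in the heart, so the counts are a description of these genes. Cacna1d, a calcium channel pore of the pacemaker, was the one excitability gene in the WT list only (fold 8.99, score 79.9). Akap9, the anchor that brings protein kinase A to the slow delayed rectifier, had 13 KO and 15 WT sites, the strongest with folds of 35.0 and 39.8. The calcium channel subunit Cacnb2 had folds of 28.0 in the KO list and 35.8 in the WT list at its strongest site, and the membrane anchor Ank2 of 8.04 and 10.4. The connexin Gja1, the exchanger Slc8a1 and the sodium pump subunit Atp1b1 were among the 12 without a site.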

How the data were processed

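Total RNA of hearts was subjected to m6A immunoprecipitation, and IP and input libraries were sequenced as paired reads of 150 bases, per the labels' protocols. Reads were handled with cutadapt 1.9.3 and HISAT2 2.0.4 on mm10, per the submitters' processing notes. Site names begin with MACS; how this peak caller was run is not given in the sources used here. The deposited fold is the authors' linear ratio of IP over input per site. The score is, per the file headers, the p-value of the peak on a log10 scale, times minus 10. The deposited false discovery rate, a percent, was 100% for all 57 KO and 53 of the 61 WT channel sites. Over all sites it was 100% for 10385 of 10388 in the KO list and 8960 of 10814 in the WT list, so this is a trait of the lists as a whole. Site lengths in the deposited tables are end minus start, so starts count from 0 and were raised by 1.

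Sites were matched with bedtools 2.31.1 (at least 1 bp, same strand) and summarised in pandas 2.3.3 and scipy 1.17.1 under Python 3.11.15. Matching was tested on simulated lists. Intervals are exact (Clopper-Pearson), 95%. Gene spans came from a RefSeq table of GRCm38.p6, which holds no exons, and promoter windows from RefSeq, where 29 of 45 symbols matched. Without replicates there was no test and no count model. The members and lists were chosen with earlier results of these data known. All member genes may be named, but a few genes are not reported here; counts and summaries include them. Full values went to genes in 1 list only, genes with most sites, heart channels and the 5 largest folds per list.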

Additional observations from a re-analysis of the deposited data

How the results depend on the processing

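Of 41 alternative values, 34 stayed close to the reported value, meaning inside its 95% counting interval for a share or a median and within 1.5 times for a count. The numbers of channel genes by list did so under each alternative tried. Keeping sites with a score of 100 or more gave 5 genes in the KO list only, 4 in the WT list only and 26 in both, but not the same genes. Scn10a and Clcn1 were among those that left the WT-only group, and Kcnd3, Kcng2 and Scn3a, with KO scores under 100, joined it. Ano1 and Piezo2 left the KO-only group, and Ano10, with a WT score of 71.1, joined it. Lists of equal length gave the same 6, 5 and 34 as reported, but this setting cut only the weakest WT sites and removed no channel site. The 7 that moved all came with the score limit of 100, which leaves fewer sites. The median fold of WT channel sites became 11.4, just above the interval of 8.69 to 11.3 around the reported 9.69, and WT genes with 2 or more sites became 8. Genes in both lists became 2 for the tandem-pore channels, 0 for TRP channels and 1 for anoctamins. Among the excitability genes, 1 was then in the KO list only (Wnk1, with a WT score of 52.6) and 0 in the WT list only. Requiring an overlap of 50% of both sites left 70.2% of KO and 65.6% of WT channel sites with a counterpart. No paired analysis was possible because each genotype has 1 site list. Depth is unknown, so the weak sites that decide most differences between the lists cannot be given a limit of detection.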
